A study of Solanum lycopersicum with 8 samples.

Results

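The genes described here are 36 tomato genes of ethylene synthesis, perception and response, taken by their tomato identifiers: the ACC synthase (ACS) and ACC oxidase (ACO) genes, the ethylene receptors, CTR1, EIN2, the EIN3-like (EIL) and EIN3-binding F-box (EBF) genes, E4, E8 and a group of ethylene response factors (ERFs). The rule goes by place in the pathway and uses no measured value, although the set was drawn up with earlier results of these data known. Of the 36, 35 had values, 1 (Solyc08g008100, an ACS gene) was not analysed here, and 32 reached a mean of 0.1 FPKM over the 8 libraries and were tested. The whole table listed 34688 genes, of which 22330 were tested.

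Torin2 is an ATP-competitive inhibitor of the TOR kinase, a central regulator of growth in plants and animals, and the experiment asked which transcripts depend on TOR activity in tomato (Solanum lycopersicum). The 4 Torin2 libraries came from 10-day-old wild-type Micro-Tom seedlings exposed to 5 µM Torin2, and the 4 mock libraries from seedlings of the same age and genotype given the solvent alone, 0.1% DMSO. Both groups grew at 25 °C on half-strength Murashige and Skoog medium under long days (16 h of light), and the study states a treatment of 2 h. RNA was taken from the entire plant, so that the values average over roots, stems, cotyledons and leaves, and fewer cells of a type cannot be told apart from less RNA per cell. The study calls the 4 libraries of a group biological replicates, and how many seedlings went into each is not given in the sources used here.

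Ethylene is made from S-adenosylmethionine, which ACS converts to ACC, the immediate precursor that ACO oxidises to the gas. Without ethylene, the receptors keep the kinase CTR1 active and CTR1 holds EIN2 in check. When ethylene binds, the receptors and CTR1 are switched off, EIN2 signals to the nucleus, and the EIN3/EIL transcription factors, which EBF proteins otherwise mark for degradation, switch on target genes such as the ERFs. In tomato the pathway is best known for fruit ripening, and E4 and E8 were first described as genes that ethylene induces in ripening fruit.

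The values are FPKM, fragments of a gene divided by its length in kilobases and by library depth. Depth, recovered from the values themselves, was 36989256 to 39651669 fragments in the Torin2 libraries and 38367242 to 39868130 in the mock libraries. The libraries of each condition were split into 2 kinds as a description. Each condition mean was subtracted, and a library was placed by the sign of its score on the leading principal component of what remained (53.6% of the variance). With the means removed, a split by sign puts libraries of both conditions in each kind whatever the values. In size, the scores ran from 0.17 (mock replicate 4) to 0.52 (Torin2 replicate 1). Torin2 replicates 2 and 4 and mock replicates 1 and 2 formed the first kind, and Torin2 replicates 1 and 3 and mock replicates 3 and 4 the second. Long genes read lower in the second kind (Spearman's rho of the difference with gene length −0.46 in Torin2 and −0.54 in mock libraries, across 22330 genes that are not independent replicates). The fold change of the median gene stood at 0.16 on the log2 scale over all 22330 genes, or at 0.01 with median-of-ratios scaling, and the summary over the ethylene genes is also given relative to this median. With that scaling 43.2% of all called genes were higher in Torin2, against 63.9% as deposited.

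Ethylene genes were mostly higher in Torin2-treated seedlings, with 12 genes called, from a receptor to the ERFs. Of the 32 genes tested, 12 rose and none fell at an adjusted p under 0.05 with an absolute log2 fold change over 1 (limma, Benjamini-Hochberg adjustment over all genes tested). Across all genes, 5.31% were called higher and 3% lower by the same rule. None of the 9 ACS and ACO genes tested was called, and the called genes were 1 of 7 receptors, CTR1, EIN2, 5 of 6 EIL and EBF genes, E4, E8 and 2 of 5 ERFs. The median log2 fold change over the 32 genes was 0.80, or 0.64 above the median of all genes.

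The count of 0 genes called lower was the same by limma-voom on recovered fragments, and at an unadjusted p under 0.05 there were 21 genes higher and 0 lower, against 19% and 10.1% of all genes. In 17 of the 32 genes all 4 Torin2 libraries lay above all 4 mock libraries, which was the case for 11.4% of all genes. No gene of the set had all 4 Torin2 libraries below the mock libraries, a pattern found in 7.77% of all genes. Differences between the steps of the pathway were not tested.

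**Figure D1:**
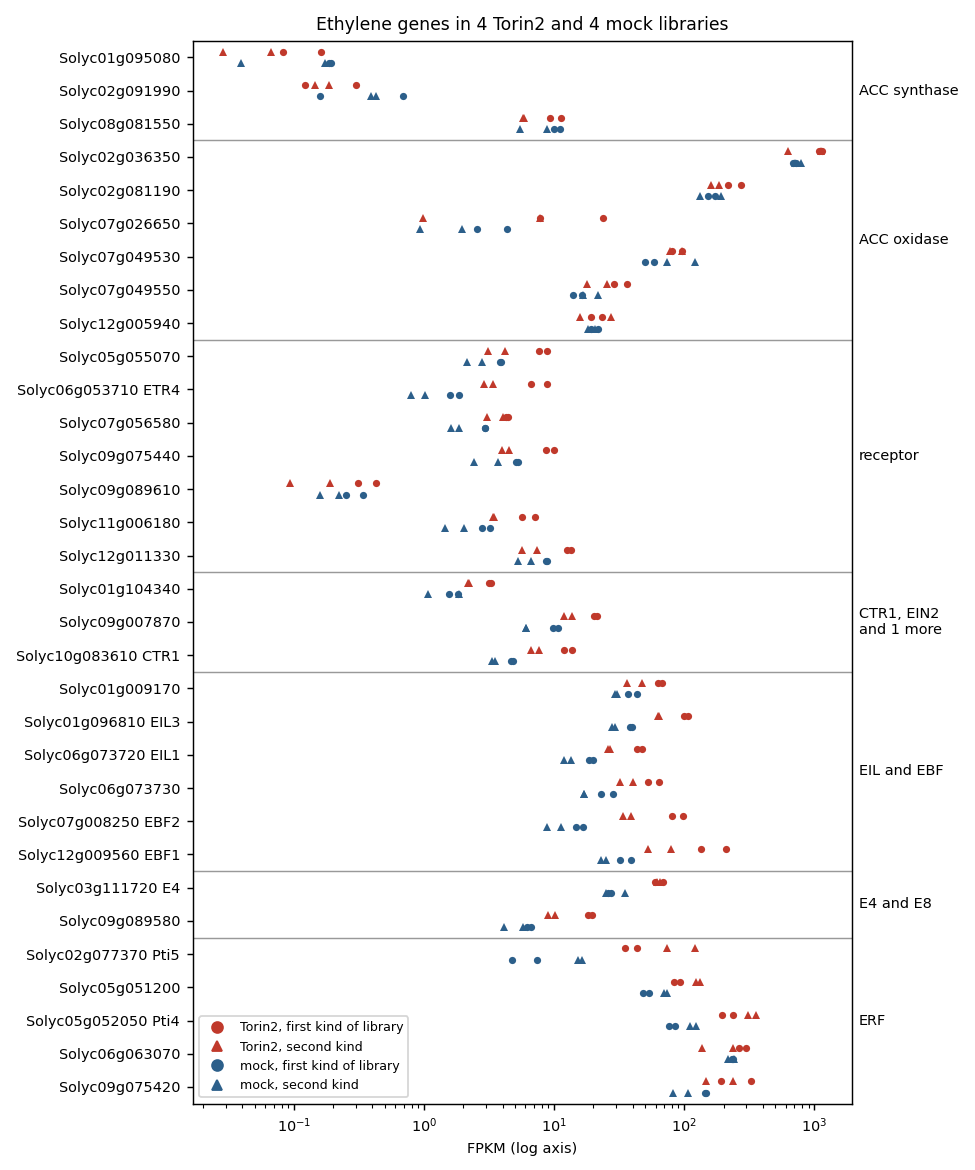
FPKM (log axis) of the 32 ethylene genes tested, grouped by step, with Torin2 libraries in red above mock libraries in blue and circles and triangles for the first and the second kind of library. The groups do not overlap in 17 genes, and none of these is an ACS or ACO gene.

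No gene of hormone synthesis was called. With 5.31% of all genes called higher and 3% lower, so few genes would often hold no call, and this count does not set them apart. ACS catalyses the step that usually limits ethylene production. Among the ACS genes of the set with values, nearly all signal came from Solyc08g081550. It took 95.8% to 97.4% of their summed FPKM in Torin2 libraries and 91.9% to 96.3% in mock libraries. Its level was 5.74, 9.35, 5.89 and 11.3 FPKM in Torin2 replicates 1 to 4, against 11.0, 9.90, 5.43 and 8.74 FPKM in the mock replicates. The groups overlapped throughout, and the log2 fold change was −0.13 ± 0.30 (SE), adjusted p = 0.809 by limma.

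The other ACS genes were barely expressed. Solyc02g091990 had 0.122 to 0.30 FPKM in Torin2 and 0.158 to 0.684 FPKM in mock libraries (log2 fold change −0.76, limma adjusted p = 0.253). Solyc01g095080, just inside the minimum, rested on 2 to 12 fragments per Torin2 library and 3 to 14 per mock library. Well under the minimum, at a mean of 0.0174 FPKM, Solyc03g043890 had 0 to 2 fragments in Torin2 and 0 to 5 in mock libraries. Solyc05g050010 and Solyc02g063540 had no fragment in any of the 8, which allows up to 3 in each.

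ACO genes, which carry out the last step, were far more abundant. Solyc02g036350 alone gave 66.0% to 79.3% of the summed ACO FPKM in Torin2 libraries and 68.9% to 74.5% in mock libraries. It stood at 621, 1082, 1113 and 1144 FPKM in Torin2 replicates 1 to 4, against 685, 717, 706 and 783 FPKM in the mock replicates. Torin2 replicate 1 was below every mock library and the other 3 were above them all, and the log2 fold change of 0.41 ± 0.22 (SE) did not pass the test (limma adjusted p = 0.219). Without Torin2 replicate 1 it was 0.62 with an adjusted p of 0.0166, still below the fold change cut-off.

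All 6 ACO genes had a log2 fold change above 0, but Solyc12g005940, at 0.06, was below 0 after median-of-ratios (−0.10) and quantile scaling (−0.04). Solyc07g049550 (0.62), Solyc02g081190 (0.35) and Solyc07g049530 (0.29) were not called, with limma adjusted p-values of 0.111, 0.286 and 0.477. The most variable was Solyc07g026650, with 7.83, 7.81, 0.972 and 23.6 FPKM in the Torin2 replicates and 4.34, 2.55, 0.920 and 1.95 FPKM in the mock replicates. Torin2 replicate 3 lay among the mock libraries, and the log2 fold change of 1.50 ± 0.69 (SE) had an adjusted p of 0.160 by limma. Left out, that replicate gave 2.36 with an adjusted p of 0.00817, past both cut-offs. Without Torin2 replicate 4, the highest library, the log2 fold change was 0.87 with a limma adjusted p of 0.396. Of the fits with 1 library left out, only the 1 without Torin2 replicate 3 called the gene.

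Among the genes of ethylene perception, 1 rose. The receptors are membrane proteins related to bacterial histidine kinases, and they repress the response until ethylene binds. ETR4 (Solyc06g053710) was the receptor that was called, out of 7. It had 3.39, 6.67, 2.88 and 8.78 FPKM in Torin2 replicates 1 to 4, against 1.57, 1.85, 0.789 and 1.01 FPKM in the mock replicates. Every Torin2 library was above every mock library, and ETR4 rose by 1.90 ± 0.38 (SE) on the log2 scale (limma adjusted p = 0.00519). Its change was 2.10 within the first kind of library and 1.70 within the second.

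The most abundant receptor, Solyc12g011330, had 7.31, 13.3, 5.69 and 12.4 FPKM in Torin2 replicates and 8.60, 8.80, 5.30 and 6.65 FPKM in mock replicates. These groups overlapped, the log2 fold change was 0.34 (limma adjusted p = 0.487), and it was −0.07 once the length trend of each library was removed. Between these extremes, Solyc11g006180 (1.00), Solyc05g055070 (0.81), Solyc07g056580 (0.77) and Solyc09g075440 (0.65) had adjusted p-values of 0.0594, 0.136, 0.0918 and 0.225 by limma. Solyc11g006180 and Solyc07g056580 did not overlap between the groups. At the fold change cut-off, Solyc11g006180 passed limma without Torin2 replicate 1 (1.15, adjusted p = 0.0368) and with the kind of library as a covariate (1.00, adjusted p = 0.00114). The kinds were set from these same values, so the covariate fit is no separate support. Solyc11g006180 was 0.80 without mock replicate 3 (adjusted p = 0.157) or Torin2 replicate 2 (0.144). After median-of-ratios scaling it was 0.85, and 0.57 with the length trend removed, under the fold change cut-off in both. Solyc09g089610 was low, at 0.0928 to 0.426 FPKM in Torin2 and 0.157 to 0.336 FPKM in mock libraries, with a log2 fold change of −0.02.

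Summed over the 7 genes, receptor FPKM was 22.3 to 50.7 in Torin2 libraries and 13.9 to 26.2 in mock libraries, and the groups overlapped. Shares of the sum were taken for ETR4, Solyc12g011330 and Solyc09g075440 only, and those of the other receptors were not compared. ETR4 supplied 12.6% to 18.4% of the sum in Torin2 libraries, against 5.56% to 7.07% in mock libraries. The share of Solyc09g075440 overlapped, at 16.7% to 19.5% in Torin2 and 17.5% to 20.3% in mock libraries. Solyc12g011330 supplied 25.6% to 27.2% in Torin2 libraries and 33.6% to 38.2% in mock libraries. ETR4 (3114 bp) and Solyc12g011330 (2861 bp) are of similar length, but the sum holds receptors of 2718 to 4183 bp. The shares are therefore not free of the trend with length, and they are descriptions without a test.

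**Figure D2:**
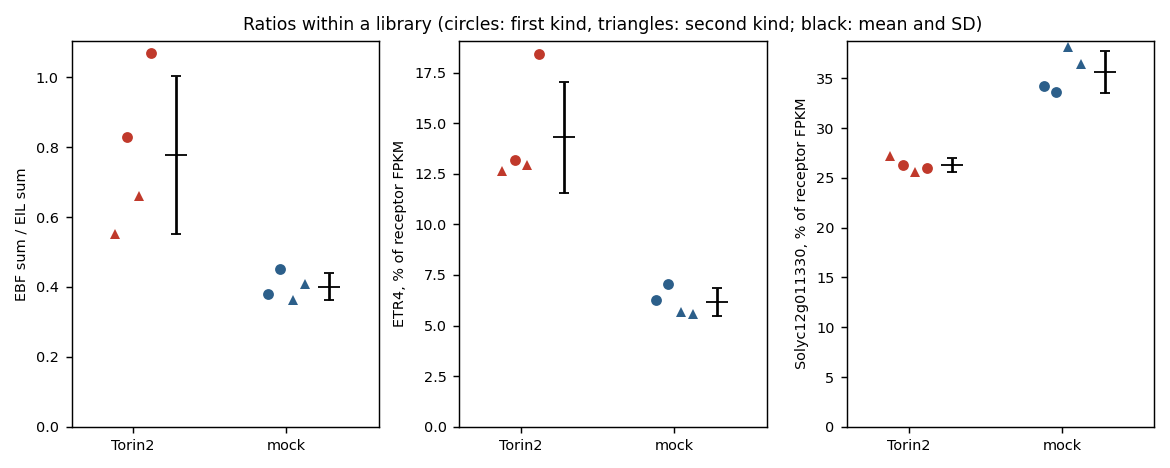
EBF sum over EIL sum (left), and the percentage of summed receptor FPKM from ETR4 (middle) and from Solyc12g011330 (right), in 4 Torin2 libraries (red) and 4 mock libraries (blue), with circles and triangles for the first and the second kind of library and black marks for mean and SD. In all 3 panels the groups do not overlap: the first 2 quantities are higher in Torin2 and the share of Solyc12g011330 is lower.

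Downstream of the receptors, CTR1 and EIN2 both rose. CTR1 (Solyc10g083610), the kinase that blocks signalling in the absence of ethylene, had 6.59, 11.9, 7.61 and 13.7 FPKM in the Torin2 replicates, against 4.65, 4.81, 3.53 and 3.30 FPKM in the mock replicates. The groups were apart and the log2 fold change was 1.22 ± 0.28 (SE), limma adjusted p = 0.0120. The adjusted p was 0.0527 without mock replicate 4, and the log2 fold change was 0.75 with the length trend removed (adjusted p = 0.00483), under the fold change cut-off.

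EIN2 (Solyc09g007870 in the gene set), the membrane protein that passes the signal on to the nucleus, had 11.9, 20.4, 13.6 and 21.2 FPKM in Torin2 replicates 1 to 4 and 10.7, 9.80, 6.10 and 6.02 FPKM in the mock replicates. No Torin2 library was below a mock library, although Torin2 replicate 1 and mock replicate 1 were close. EIN2 rose by 1.03 ± 0.28 (SE) on the log2 scale (limma adjusted p = 0.0254), just past the fold change cut-off, and it was called in 12 of 23 alternatives. The value was 0.88 with median-of-ratios factors and 0.44 with the length trend removed, and at 4841 bp it is the longest gene of the set. The call was also lost without mock replicate 3 (0.91, adjusted p = 0.0714), mock replicate 4 (0.91, 0.101), Torin2 replicate 2 (0.93, 0.0572) or Torin2 replicate 4 (0.91, 0.0766). Solyc01g104340, listed beside CTR1 and EIN2, had 2.18 to 3.27 FPKM in Torin2 and 1.06 to 1.86 FPKM in mock libraries, without overlap, and was not called (0.75, adjusted p = 0.111).

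The nuclear step held the most called genes, 5 of 6, with a median log2 fold change of 1.21. EIL proteins are the transcription factors that carry the ethylene signal to its target genes. EIL3 (Solyc01g096810) had 62.3, 99.7, 64.0 and 106.8 FPKM in Torin2 replicates and 37.9, 39.6, 28.0 and 29.3 FPKM in mock replicates. Its lowest Torin2 value was well above its highest mock value, and it rose by 1.27 ± 0.24 (SE) on the log2 scale (limma adjusted p = 0.00289).

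EIL1 (Solyc06g073720) had 26.8, 42.9, 26.1 and 47.2 FPKM in Torin2 replicates and 18.3, 19.7, 11.9 and 13.4 FPKM in mock replicates. Its neighbour in the gene list, Solyc06g073730, had 32.2, 52.2, 40.4 and 64.0 FPKM in Torin2 replicates, against 28.2, 22.7, 16.8 and 17.0 FPKM in mock replicates. Neither gene overlapped between the groups, and their log2 fold changes were 1.15 for EIL1 and 1.14 for Solyc06g073730 (limma adjusted p = 0.0106 and 0.0102). After median-of-ratios scaling these were 0.99 and 0.98, and without Torin2 replicate 4 they were 1.00 and 0.98, so that both fell short of the fold change cut-off there with adjusted p-values still under 0.05. How reads shared by neighbouring, similar genes were assigned is not given in the sources used here. The remaining member of the group, Solyc01g009170, overlapped between the groups and was not called (0.59, adjusted p = 0.116).

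Both EBF genes, whose products turn over EIL proteins, rose. EBF1 (Solyc12g009560) had 52.8, 133.0, 78.6 and 208.3 FPKM in Torin2 replicates 1 to 4, against 31.8, 39.1, 22.9 and 24.9 FPKM in the mock replicates. EBF2 (Solyc07g008250) had 33.9, 80.5, 38.9 and 97.3 FPKM in Torin2 replicates and 16.6, 14.6, 8.83 and 11.2 FPKM in mock replicates. Both were highest in Torin2 replicates 2 and 4, of the first kind, and neither overlapped between the groups. EBF1 rose by 1.83 ± 0.34 (SE) and EBF2 by 2.18 ± 0.33 (SE) on the log2 scale, with limma adjusted p-values of 0.00322 and 0.000631. The 4 EIL genes came to 0.59 to 1.27, and the difference between EBF and EIL genes was not tested.

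Within the first and the second kind of library the EBF increase was 2.24 and 1.43 for EBF1 and 2.50 and 1.86 for EBF2. With no overlap between the groups, a positive sign in both kinds was fixed. The summed FPKM of the EBF genes over that of the EIL genes was 0.551, 0.831, 0.660 and 1.07 in Torin2 replicates, against 0.379, 0.451, 0.363 and 0.408 in mock replicates. This ratio was thus higher in every Torin2 library than in any mock library. As a ratio within a library it is free of the scaling between libraries, but not of the trend with length, and no test was made of it.

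E4 and E8 both rose. E4 (Solyc03g111720), annotated as a peptide methionine sulfoxide reductase, had 61.5, 58.9, 64.9 and 68.7 FPKM in the Torin2 replicates, against 27.3, 25.7, 34.9 and 24.8 FPKM in the mock replicates. Its Torin2 values were close together, at 63.5 ± 4.24 FPKM (SD, n = 4), with 28.2 ± 4.58 FPKM in mock libraries (SD, n = 4). E4 rose by 1.18 ± 0.20 (SE) on the log2 scale (limma adjusted p = 0.00150). E8 (Solyc09g089580 in the gene set) carries the symbol ACO3 in the study's annotation, as a member of the oxygenase superfamily that needs 2-oxoglutarate and iron. It had 10.2, 18.1, 8.97 and 19.6 FPKM in Torin2 replicates and 6.59, 6.14, 4.09 and 5.79 FPKM in mock replicates. The groups were again apart, and its log2 fold change was 1.25 ± 0.29 (SE), adjusted p = 0.0122.

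The ERFs are transcription factors at the end of the pathway, and the largest change of the whole set was among them. Pti5 (Solyc02g077370, also ERF C.5) had 121.0, 34.9, 74.0 and 43.3 FPKM in Torin2 replicates 1 to 4, against 4.72, 7.36, 15.2 and 16.4 FPKM in the mock replicates. Here Torin2 replicates 1 and 3 and mock replicates 3 and 4, all of the second kind, were the higher libraries of their group, the reverse of the order in the EBF genes. Pti5 rose by 2.64 ± 0.41 (SE) on the log2 scale, a 6.23-fold change on the scale with 0.1 FPKM added (limma adjusted p = 0.000911).

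Pti4 (Solyc05g052050) was the more abundant of the called ERFs. It reached 356, 196, 306 and 238 FPKM in Torin2 replicates and 75.6, 84.9, 123.8 and 109.9 FPKM in mock replicates. Its groups did not overlap, and it rose by 1.46 ± 0.23 (SE) on the log2 scale (limma adjusted p = 0.00103). Pti4 and Pti5 take their names from tomato proteins that bind the resistance kinase Pto.

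With the values as deposited, the other ERFs passed the test on p only or not at all. Solyc05g051200 had 82.7 to 132.2 FPKM in Torin2 and 48.1 to 73.4 FPKM in mock libraries, with a log2 fold change of 0.80 and an adjusted p of 0.030 by limma, and Solyc09g075420 had 146.9 to 324.9 FPKM in Torin2 and 81.4 to 145.4 FPKM in mock libraries, with 0.89 and 0.0369. Neither overlapped between the groups, and both stayed under the fold change cut-off. With them, 14 of the 32 genes were higher at an adjusted p under 0.05 with no fold change cut-off, against 7.53% of all genes. Solyc09g075420 passed it without Torin2 replicate 1 (1.08, adjusted p = 0.00908) and without mock replicate 1 (1.00, 0.0402). The most abundant ERF, Solyc06g063070, stood at 137.0, 261.8, 234.6 and 297.1 FPKM in Torin2 replicates and at 231.4, 238.4, 218.3 and 240.5 FPKM in mock replicates. It overlapped, with a log2 fold change of −0.05 that was 0.11 after quantile scaling.

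**Figure D3:**
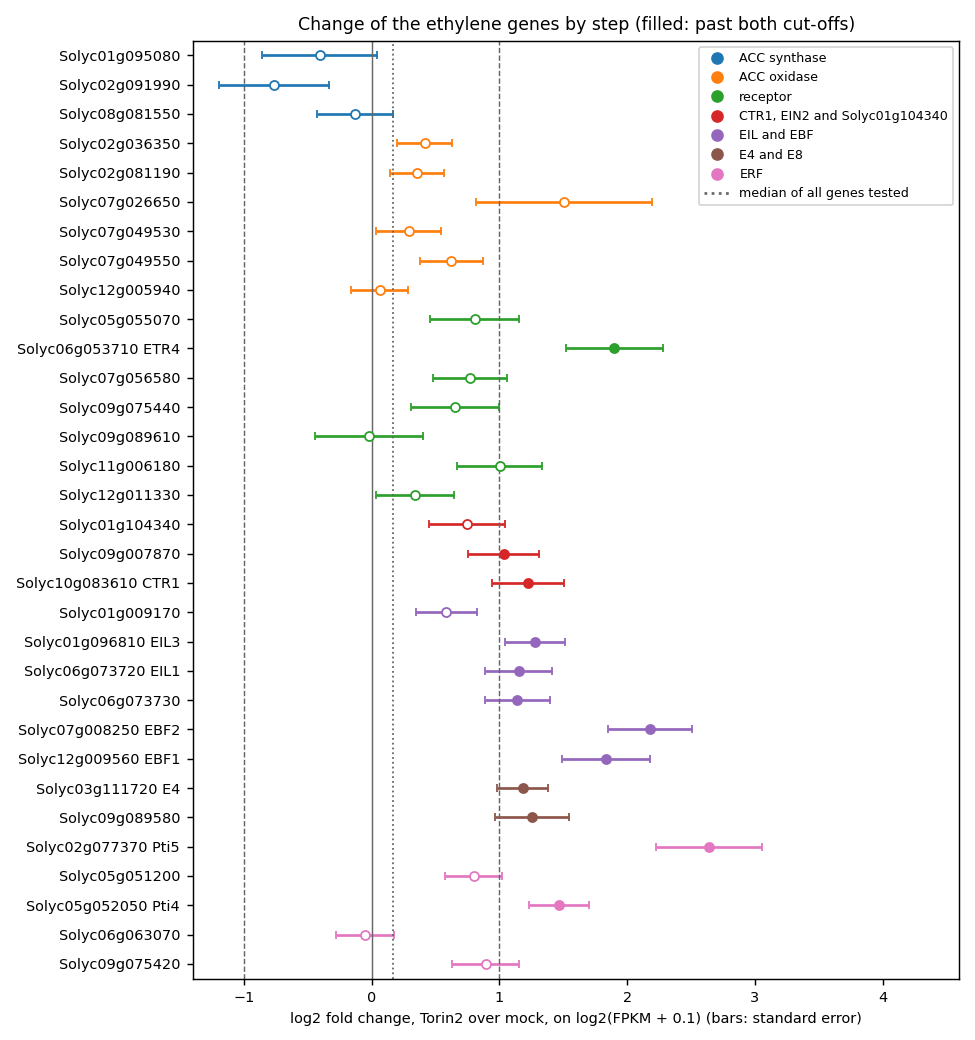
Log2 fold change, Torin2 over mock, on log2(FPKM + 0.1) with its standard error for the 32 ethylene genes tested, coloured by step, filled where both cut-offs were passed (dashed lines at −1 and 1; dotted line, median of all genes, 0.16). The 12 filled points include 1 receptor, ETR4, and Pti5 lies the farthest at 2.64.

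The size of the change was also taken within each kind of library. For the 12 called genes the groups were fully apart, which fixes a positive sign in either kind. The size is not independent of the call either. The 2 within-kind changes of a gene average to its overall change, which was over 1 by the call. Sizes were past 1 in both kinds for 11 of the 12, which is a description and no separate support. The exception was E8, at 1.55 in the first kind and 0.96 in the second. The changes were larger in the first kind for 26 of the 32 genes tested. Of the 6 ACO genes, 4 lay between 0.60 and 1.09 in the first kind and between −0.12 and 0.16 in the second. Median-of-ratios factors in the first kind were 1.27 and 1.18 in Torin2 and 1.06 and 1.04 in mock libraries. In the second kind they were 0.871 and 0.957 in Torin2 and 0.798 and 0.915 in mock libraries. The share over all genes is not given here, so the count cannot be read as a trait of the ethylene genes. The difference in change between kinds was not tested.

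**Figure D4:**
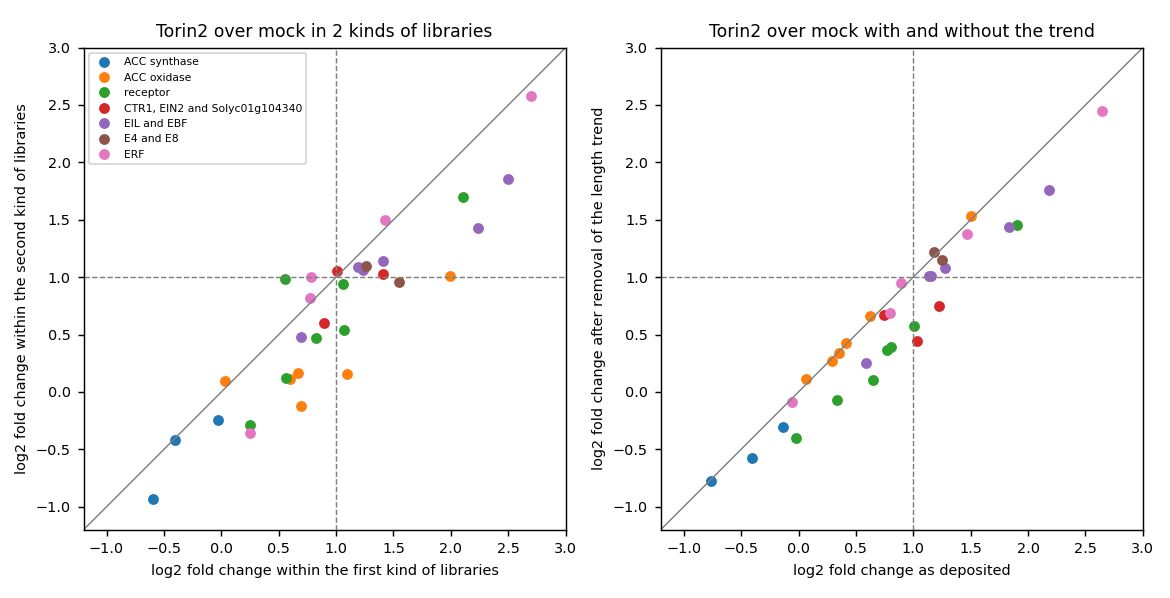
Log2 fold change (Torin2 over mock) of each ethylene gene within the second kind of library against that within the first (left), and with the length trend of each library removed against the values as deposited (right), coloured by step, with dashed lines at 1 and the diagonal drawn. Of the 12 called genes 11 are past 1 on both axes of the left panel, while CTR1 (0.75) and EIN2 (0.44) fall under 1 on the right.

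Gene length moved with the result, and the receptors, CTR1 and EIN2 are long genes. Among all genes of at least 3000 bp the median log2 fold change was 0.57 and 9.73% were called higher, against 0.03 and 3.58% for genes of 1000 to 2000 bp. The 5 ethylene genes of at least 3000 bp had a median of 1.03 and 3 were called, and the 14 of 1000 to 2000 bp had a median of 0.38 with 3 called. With the length trend removed, 10 of the 12 remained called, with 3.44% of all genes called higher. The receptor median was then 0.37 in place of 0.77, while that of the EIL and EBF genes was 1.05 and that of the ERFs 0.95.

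Of the 5 ethylene genes under 1000 bp 3 were called, Pti5 (486 bp), Pti4 (705 bp) and E4 (973 bp), and Solyc05g051200 (675 bp) and Solyc01g104340 (732 bp) were not, against 6.39% of all genes of that length called higher. After median-of-ratios scaling 9 of the 12 remained called, also with 3.44% of all genes called higher, and EIN2, EIL1 and Solyc06g073730 were the losses. The same 9 were called by limma-voom on recovered fragments, with 3.56% of all genes called higher.

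**Figure D5:**
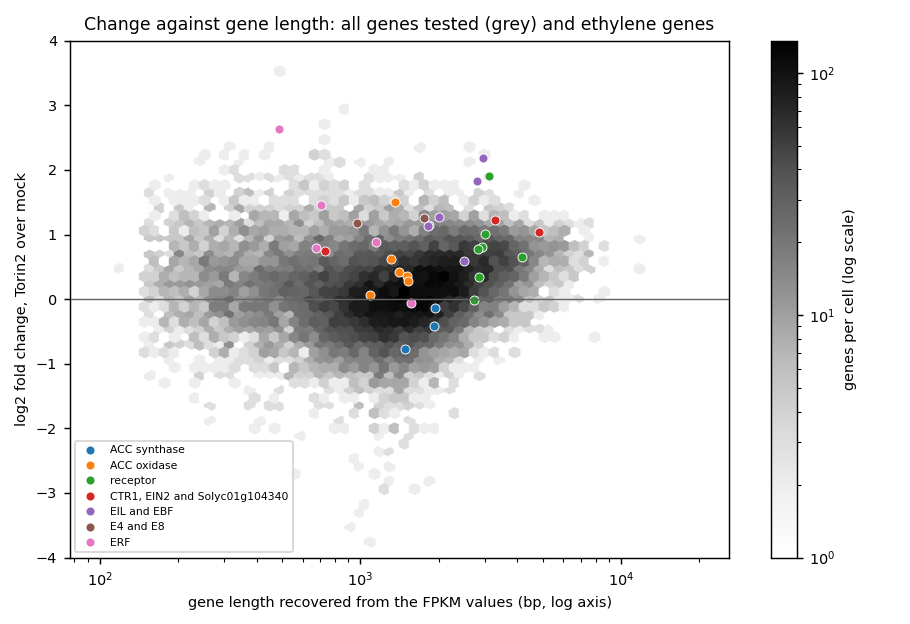
Log2 fold change, Torin2 over mock, against gene length (bp, log axis) for all 22330 genes tested (grey, darker where there are more genes) and the ethylene genes, coloured by step. The cloud of all genes bends upward beyond 2000 bp, where the receptors, CTR1 and EIN2 lie, and Pti5 and the EBF genes stand above it.

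Outside the set, 4 further identifiers had been listed for the pathway. The ACS gene Solyc08g081540 had no values. The other 3, all S-adenosylmethionine synthetases, had values, and none was called in either direction by limma. Before adjustment 2 of the 3 were lower at p under 0.05, and limma-voom called 0. SAM3 (Solyc09g008280), an S-adenosylmethionine synthetase that supplies the substrate of ACS, had 214, 203, 187 and 227 FPKM in Torin2 replicates, against 462, 529, 246 and 323 FPKM in mock replicates. All Torin2 values were below all mock values, and the log2 fold change was −0.85 (limma adjusted p = 0.0287), under the fold change cut-off. After median-of-ratios scaling it was −1.01 (adjusted p = 0.0104) and SAM3 was called lower, the opposite direction to the signalling genes. The most abundant of the 3, Solyc01g101060, overlapped between the groups (−0.11, limma adjusted p = 0.789), as did Solyc12g099000 (−0.50, 0.169). Summed over the 3, FPKM was 681 to 979 in Torin2 and 766 to 1325 in mock libraries, and the groups overlapped.

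Tissue markers were compared because a whole seedling mixes organs. The 3 green tissue markers, all with values, summed to 12002 to 18689 FPKM in Torin2 and 17275 to 24022 FPKM in mock libraries. Their log2 fold changes were −0.51 (Solyc02g071000), −0.71 (Solyc02g085950) and −0.35 (Solyc03g034220), and none was called (limma adjusted p = 0.0866, 0.274 and 0.406). Solyc02g071000 did not overlap, with 1335 to 1950 FPKM in Torin2 and 2236 to 2512 FPKM in mock libraries, and its adjusted p was 0.0442 by limma-voom. Of 3 root markers 2 had values, with sums of 6.61 to 11.3 FPKM in Torin2 and 14.0 to 18.7 FPKM in mock libraries. Nearly all of this was the transcription factor FIT (Solyc06g051550), as Solyc02g069200 had at most 0.0799 FPKM in Torin2 and 0.119 FPKM in mock libraries. FIT fell by 1.00 on the log2 scale (limma adjusted p = 0.0141), just past the fold change cut-off, and was called lower. Of 4 ripening fruit markers 3 had values, with sums of 6.43 to 9.43 FPKM in Torin2 and 6.50 to 10.3 FPKM in mock libraries. Nearly all of this was Solyc03g111690, at 6.41 to 9.43 FPKM in Torin2 and 6.50 to 10.3 FPKM in mock libraries. Solyc10g006880 had at most 0.0180 FPKM in Torin2 and 0.0543 FPKM in mock libraries, and Solyc10g080210 had no fragment in any library. The part of organ makeup in the changes of the ethylene genes was not tested.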

How the data were processed

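RNA from whole seedlings was sequenced in 8 libraries (4 Torin2, 4 mock). Per the labels, the authors' tools were fastp, FastQC, HISAT2, SAMtools, HTSeq, DESeq and DESeq2, with alignment to the tomato genome SL4.0. The step that made FPKM is not given in the sources used here. The deposited FPKM values, 1 column per library, were used as they stood. Whole fragments, depth and gene length were recovered from the steps between low values.

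The fit used limma 3.58.1 (R 4.3.3; trended variance, no covariate) on FPKM values after addition of 0.1 and log2 transformation, for genes whose mean reached 0.1 FPKM, with Benjamini-Hochberg adjustment over 22330 genes. A call needed both a log2 fold change beyond 1 in size and an adjusted p below 0.05. The fit was also run on simulated libraries with independent noise for each gene. These had neither kinds of library nor a length trend, so that run cannot show how the fit handles either. Fold changes of low genes are understated by the added 0.1.

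Members and lists were chosen with earlier results of these data known. All members are named, with every library's value for those called and for the most abundant of each step. Gene names come from the study's annotation, which for members was read only from its list of changed genes and names 10 of them. EIN2 and E8 are named as in the gene set instead. Of the called genes, EIN2 and Solyc06g073730 had no name in that list. Other members are given by identifier. Tables were handled in Python 3.11.15 with pandas 2.3.3, numpy 2.4.6 and scipy 1.17.1. Alternatives were pseudocounts of 1 and 0.01, no filter or a mean of 1 FPKM, median-of-ratios and quantile scaling, untrended and robust variance, the replicate number as a block, the kind of library as a covariate, each library left out, other cut-offs, removal of each library's length trend (loess, span 0.3), alone and with the block, and limma-voom on recovered fragments. Promoter motifs were not analysed here. Similar gene copies could share reads.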

Additional observations from a re-analysis of the deposited data

Results flagged for a closer look

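In 2 of the 64 groups of 4 libraries examined, 1 library stood far from the other 3; chance alone flags about 1 in 20 groups, or 3.2 here. Torin2 replicate 1 was the low library for the ACO gene Solyc02g036350, at 621 FPKM with the other Torin2 libraries at 1082 to 1144 FPKM, a gap of 0.908 of the group's range on the log2(FPKM + 0.1) scale. Mock replicate 3 was the low library for the ACS gene Solyc01g095080, with 3 fragments where the other mock libraries had 13 to 14, a gap of 0.908 of the range on the same scale.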

How the results depend on the processing

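The number of ethylene genes called higher was 12, and it was 7 at an adjusted p under 0.01 and 9 to 14 when each library was left out in turn. The lowest count, 9, came without Torin2 replicate 4 and the highest, 14, without Torin2 replicate 1. Of the called genes, 7 were called under all 23 alternatives and 0 changed direction. The replicate numbers do not pair the libraries: same-numbered libraries had correlations of −0.377, 0.38, 0.397 and −0.253 between their deviations from the group means, and with the replicate block 14 genes were called higher, including all 12 and adding Solyc07g026650 (1.50, limma adjusted p = 0.0402) and Solyc11g006180 (1.00, 0.0404). Outside the set, genes called lower were 0, against 1 after median-of-ratios scaling, 1 with no fold change cut-off and 0 to 1 with a library left out (1 without mock replicate 3). Among 733 values of single genes under alternatives, 686 kept direction and call, 24 lost the call, 10 gained it and 13 changed sign, all in 5 uncalled genes. Solyc12g005940 was −0.10 after median-of-ratios scaling and by limma-voom and −0.045 after quantile scaling. Solyc12g011330 was −0.068 with the length trend removed, with or without the block. Solyc09g089610 was 0.0094 with a pseudocount of 1, and Solyc06g063070 was 0.11 after quantile scaling. With a library left out, Solyc08g081550 ranged over −0.34 to 0.0082, Solyc12g005940 over −0.064 to 0.20, Solyc09g089610 over −0.24 to 0.24 and Solyc06g063070 over −0.19 to 0.18. The cause of these changes was not tested. The 2 lesser ACS genes tested rest on few fragments.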
